A study of Homo sapiens with 8 samples.

Results

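A20 is the protein made from TNFAIP3, and the 10 genes described here are TNFAIP3 and 9 genes whose products work with it on ubiquitin chains. The set is defined by name, from what the proteins are known to do, with no measured value in the rule. It was chosen with earlier results of these data known. All 10 were found among the 57992 genes counted and among the 13412 with enough reads to be tested. The adaptors TNIP1, TNIP2 and TAX1BP1, the E3 partners ITCH and RNF11, the deubiquitinases CYLD and OTULIN, and RNF31 and RBCK1 of the linear ubiquitin assembly complex (LUBAC) make up the set. RNAseq was performed on RKO cells, an established human colon carcinoma cell line, in 4 samples with control siRNA and 4 samples with A20 siRNA, numbered 1 to 4 in each group. All 8 samples received recombinant human wnt3a at 50 ng/mL for 24 hours, so the labels set the groups apart by the siRNA alone, and a response to wnt3a itself cannot be read from them. Knockdown by siRNA lowers a transcript in a population of transfected cells and leaves the gene intact. Neither the labels nor the methods say whether the replicates were separate cultures, so p-values measure the spread between these samples, which may be technical.

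Ubiquitin chains joined through lysine 63 or through the first methionine (linear chains) act as platforms for the kinases that turn on NFkB after TNF and related signals. LUBAC builds linear chains, and TRAF and cIAP ligases with the E2 enzyme UBE2N build lysine 63 chains. A20 dampens this signaling. It binds linear chains through a zinc finger, removes or edits lysine 63 chains, and works with adaptors (TNIP1, TAX1BP1) and E3 ligases (ITCH, RNF11). CYLD and OTULIN cut lysine 63 and linear chains, or linear chains alone. TNFAIP3 is itself a target of NFkB, so A20 is part of a feedback loop, and in the intestine its loss is known for sensitising epithelium to TNF-driven death.

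Bases just before the transcription start are shown for the knocked-down gene and for TNIP1 and CYLD, partners with sites of the same kind. BIRC3, a K63 ligase gene described further on, is shown because its level passed the threshold in these same data. Matches in the other genes of its list are not given, and whether its site bears on its level was not tested. Each line holds the 250 bases before the start of a RefSeq transcript (GRCh38.p14), 5′ to 3′ on the gene's strand, and capitals mark matches to the kB consensus, the sequence NFkB binds, on either strand. TNFAIP3 is read from chr6:137867009-137867258 (plus strand), TNIP1 from chr5:151081035-151081284 (minus strand), CYLD from chr16:50741836-50742085 (plus strand) and BIRC3 from chr11:102317234-102317483 (plus strand).
TNFAIP3: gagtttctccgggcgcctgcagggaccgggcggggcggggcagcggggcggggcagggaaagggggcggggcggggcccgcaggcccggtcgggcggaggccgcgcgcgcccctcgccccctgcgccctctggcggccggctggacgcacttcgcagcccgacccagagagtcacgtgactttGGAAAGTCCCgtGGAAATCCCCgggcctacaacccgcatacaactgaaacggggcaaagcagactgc
TNIP1: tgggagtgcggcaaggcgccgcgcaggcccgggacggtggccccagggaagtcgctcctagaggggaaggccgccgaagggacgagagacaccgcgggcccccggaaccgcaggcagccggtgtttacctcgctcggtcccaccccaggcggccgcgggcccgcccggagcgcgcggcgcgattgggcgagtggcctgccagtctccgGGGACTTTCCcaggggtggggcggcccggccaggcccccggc
CYLD: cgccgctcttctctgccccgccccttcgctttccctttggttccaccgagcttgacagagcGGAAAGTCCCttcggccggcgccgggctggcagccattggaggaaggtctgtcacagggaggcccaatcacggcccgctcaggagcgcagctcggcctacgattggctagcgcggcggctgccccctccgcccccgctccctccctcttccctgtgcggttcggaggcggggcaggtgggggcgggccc
BIRC3: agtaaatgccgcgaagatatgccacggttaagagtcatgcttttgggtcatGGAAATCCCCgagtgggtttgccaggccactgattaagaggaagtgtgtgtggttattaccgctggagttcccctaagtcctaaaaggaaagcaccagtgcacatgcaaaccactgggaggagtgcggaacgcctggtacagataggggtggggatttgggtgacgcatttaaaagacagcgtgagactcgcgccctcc
The upstream sequence of TNFAIP3 held 2 matches, 1 from -67 to -58 and 1 from -55 to -46 relative to the start. In TNIP1 there was 1, from -42 to -33, in CYLD 1, from -189 to -180, and in BIRC3 1, from -199 to -190. The window of another CYLD start held a further match, at 0 to 9. Windows of 300 bases (250 before and 50 after the start) were searched for every promoter in the table. Of 35116 windows, 2714 (7.73%) held at least 1 match and 679 (1.93%) held 2 or more. A site that matches on both strands was counted as 2, so the 1.93% may include windows with 1 such site. It is not a share of windows with 2 separate sites, as in TNFAIP3. All 10 members had a window, and 4 of their 15 windows held a match, which were those of TNFAIP3, 1 of TNIP1 and 2 of CYLD. A match of letters is a description of the sequence, and binding was not measured.

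Total counts ran from 21226451 to 34194273 per sample and overlapped between the groups. Of the 6 epithelial markers KRT18, KRT8 and EPCAM were tested, and of the 6 intestinal markers CDX2, at 271 to 3187 reads per sample. KRT19, CDH1, CDX1, LGR5 and MUC2 were at 0 in every sample. CLDN4 (1 to 4 reads), VIL1 and CDH17 (0 to 1 reads each) were too low to be tested. Of the 6 leukocyte markers 1 was tested, CD68, at 18 to 35 reads per sample, and PTPRC, CD3E and HLA-DRA were at 0. The leukocyte list summed to 0.782 to 1.44 CPM in the controls and 0.736 to 1.22 CPM after knockdown, and the 6 fibroblast and endothelial markers summed to at most 0.166 CPM. Control replicate 1 and A20 siRNA replicate 2 stood apart from their groups in how levels varied with exonic length (Spearman's rho across genes of 0.079 and -0.082, against -0.200 to -0.111 and 0.069 to 0.178 in the rest of their groups). Results without both samples, a setting chosen after seeing the data, are given beside those they touch. In that setting every control sample had a negative rho and every A20 siRNA sample a positive one. The length trend and the siRNA therefore cannot be told apart there, and whether calls gained in it follow length was not tested. With all 8 samples the same split held except in control replicate 1 and A20 siRNA replicate 2. Length trend and siRNA were therefore largely tied together in the main test as well. A length and GC correction is among the alternatives given at the end.

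TNFAIP3, which encodes A20, lies on chromosome 6 from 137867214 to 137883314 (plus strand, GRCh38, identifier ENSG00000118503). With control siRNA the samples of replicates 1 to 4 held 148, 149, 145 and 131 reads, or 4.92, 5.83, 5.59 and 5.53 CPM, where CPM is the count scaled to a common library size. With A20 siRNA they held 119, 84, 83 and 73 reads, or 3.47, 3.01, 3.40 and 3.43 CPM. The groups did not overlap (7.61% of all tested genes had groups apart in either direction), and the lowest control sample was 1.42 times the highest A20 siRNA sample. The means were 5.47 ± 0.388 CPM (SD, n = 4) for the controls and 3.32 ± 0.215 CPM (SD, n = 4) after knockdown, which left 60.8% of the control level. The log2 fold change was -0.71 with a 95% interval from -0.91 to -0.51 (Benjamini-Hochberg adjusted p = 0.00258, quasi-likelihood test of edgeR), and an exact permutation test of the log2 CPM values, two-sided, gave p = 0.0286, the smallest that 4 samples against 4 allow. By p-value TNFAIP3 was number 2 of the 13412 genes tested. Fewer cells carrying the transcript and less transcript per cell cannot be told apart in such bulk samples.

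TNFAIP3 was the single member that passed the adjusted threshold of 0.05, so 1 of 10 was lower and 0 of 10 higher, where 0.611% of all tested genes were lower, 0.634% were higher and 1.25% changed in either direction. DESeq2 and limma-voom also called 0 members higher. Limma-voom called TNFAIP3 lower, while DESeq2 gave it a log2 fold change of -0.72 but no adjusted p, since its mean count was under that tool's filtering threshold. The log2 fold changes of the 9 partners ran from -0.064 for TNIP1 to 0.053 for RNF31, with a median of -0.011, and their adjusted p-values from 0.328 to 0.996 in edgeR's quasi-likelihood test. At an unadjusted p under 0.05, 0 of the 9 passed, where 16.2% of all tested genes did. The median size of their log2 fold change was 0.018, against 0.0495 over all tested genes. These medians were not matched for read count, and tested genes with few reads have larger errors. Their 95% intervals together spanned changes of -8.66% to 12.9%, so for each partner a fall to 60.8% of the control level, as in TNFAIP3, lies outside the interval. Without control replicate 1 and A20 siRNA replicate 2 the 9 partners ran from -0.070 to 0.108 and none of them passed, and TNFAIP3 had a log2 fold change of -0.72.

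**Figure D1:**
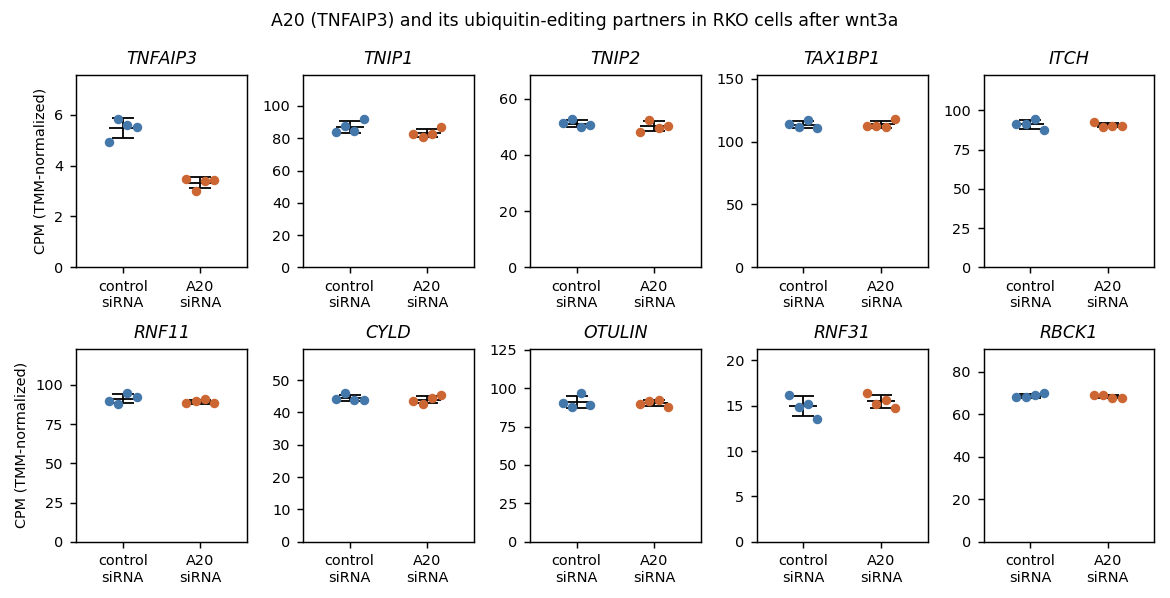
Levels of the 10 members in each sample, in CPM on axes that start at 0, with control siRNA in blue and A20 siRNA in orange. Bars give the mean and SD of 4 samples. The groups are apart for TNFAIP3 (4.92 to 5.83 against 3.01 to 3.47 CPM) and overlap in the 9 other panels.

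Among the adaptors, which carry A20 to ubiquitin chains, TNIP1 (ABIN-1, with a linear chain binding domain; chromosome 5, 151029945 to 151093577) came nearest to a change. Its control samples had 84.0, 87.7, 84.4 and 91.9 CPM, and its A20 siRNA samples had 82.3, 80.7, 82.7 and 87.1 CPM. The groups overlapped between 84.0 and 87.1 CPM. The log2 fold change was -0.064 (95% interval -0.13 to 0.0021, adjusted p = 0.328, edgeR's quasi-likelihood test), a change of -4.36%. TNIP2 (ABIN-2, a related adaptor that also holds the kinase TPL2; chromosome 4, 2741648 to 2756342) ran from 49.8 to 52.8 CPM in the controls and from 48.2 to 52.5 CPM after knockdown. Its groups overlapped too, with a log2 fold change of -0.028 (interval -0.098 to 0.042). TAX1BP1, an adaptor that links A20 to its substrates and is also an autophagy receptor (chromosome 7, 27739331 to 27844564), had 111.0 to 117.4 CPM and 111.8 to 117.9 CPM. Its log2 fold change was 0.0006 (interval -0.054 to 0.055), the smallest of the 10.

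ITCH and RNF11 are the ubiquitin ligases that act with A20 and TAX1BP1. ITCH, a HECT ligase of the NEDD4 family (chromosome 20, 34363235 to 34511773), ranged from 87.2 to 94.5 CPM in the controls and from 89.5 to 92.4 CPM after knockdown, and the A20 siRNA samples lay wholly within the control range. Its log2 fold change was -0.008 (interval -0.065 to 0.049). RNF11, a small RING protein (chromosome 1, 51236273 to 51273447), had 88.1 to 94.7 and 88.4 to 91.2 CPM, again inside the control range, and a log2 fold change of -0.029 (interval -0.086 to 0.028). RNF11 has 2 annotated pseudogenes, RNF11P1 and RNF11P2, and TNIP2 has 1, so reads shared with such copies were left out of their unique counts.

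The deubiquitinases cut chains of the kinds that A20 edits or binds. CYLD, which takes apart lysine 63 and linear chains (chromosome 16, 50742050 to 50801935), lay between 43.7 and 45.9 CPM in the controls and between 42.5 and 45.3 CPM after knockdown, and its log2 fold change was -0.018 (interval -0.087 to 0.051). OTULIN, which cuts linear chains only and binds LUBAC (chromosome 5, 14664664 to 14699850), had 88.0 to 96.7 and 88.0 to 92.4 CPM, a log2 fold change of -0.011 (interval -0.074 to 0.052). Both proteins have also been tied to wnt signaling, through Dishevelled. Their groups overlapped, and neither passed the threshold (adjusted p = 0.837 for CYLD and 0.900 for OTULIN, edgeR's quasi-likelihood test).

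**Figure D2:**
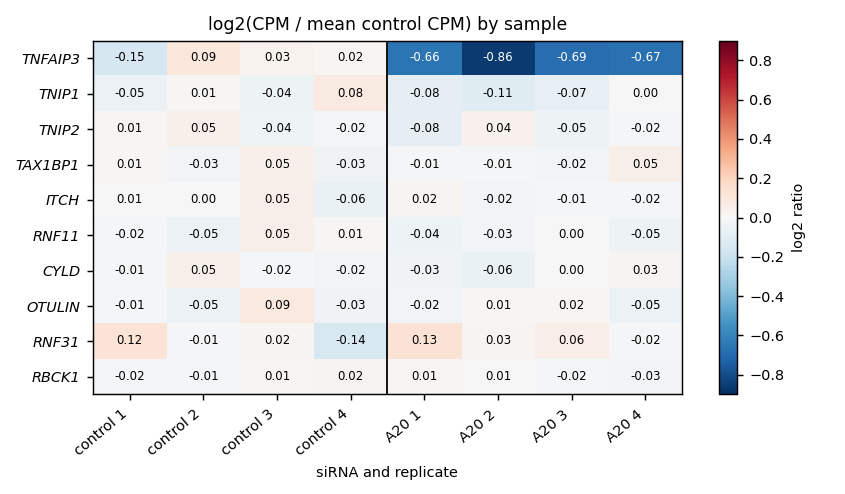
Each member (rows) in each sample (columns) as log2 of its CPM over the mean CPM of the control samples, with blue for lower and red for higher. The 4 A20 siRNA values of TNFAIP3 lie between -0.86 and -0.66, and the 72 values of the other members between -0.14 and 0.13.

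RNF31 (HOIP, chromosome 14, 24146683 to 24160660) is the catalytic subunit of LUBAC and RBCK1 (HOIL-1, chromosome 20, 407498 to 432139) is its partner ligase. The control samples of RNF31 had 16.2, 14.8, 15.2 and 13.5 CPM and its A20 siRNA samples 16.4, 15.2, 15.6 and 14.8. Replicate 1 was the highest and replicate 4 the lowest in both groups. The difference between the groups was within the spread of the samples, with a log2 fold change of 0.053 (interval -0.069 to 0.17, adjusted p = 0.711, edgeR's quasi-likelihood test). RNF31 rested on 314 to 562 reads per sample, and its standard error of 0.058 was the largest among the partners. RBCK1 had the smallest control SD for its level, at 67.9 to 69.7 CPM in the controls and 67.5 to 69.1 CPM after knockdown, and a log2 fold change of -0.006 (interval -0.061 to 0.049).

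SHARPIN, the other regulatory subunit of LUBAC, averaged 33.1 ± 0.695 CPM in the controls and 31.5 ± 1.35 CPM after knockdown (SD, n = 4 per group), and its log2 fold change was -0.068 (adjusted p = 0.400, edgeR's quasi-likelihood test). Per length of exon, SHARPIN made up 58.0% of the summed level of the LUBAC subunits with control siRNA, RBCK1 31.2% and RNF31 10.9%. With A20 siRNA the shares were 56.6%, 31.8% and 11.6%. These shares depend on the length used, and with the longest transcript they were 46.8%, 44.4% and 8.8% in the controls. The RNF31 share ran from 9.75% to 11.9% over the control samples and from 11.1% to 12.1% over the A20 siRNA samples, so the groups overlapped. The level of RNF31 is the least certain of the set. In GENCODE release 44, 56.2% of its 6713 exonic bases also belong to other genes, most of them (3457 bases) to a readthrough gene on the same strand, ENSG00000259529. That gene was counted separately, at 13 to 25 reads per sample, and STAR gives reads on bases shared by 2 genes to neither. Over the 2943 bases shared with no other gene counted, RNF31 made up 21.3% of the summed transcript level of the subunits with control siRNA. With A20 siRNA this share was 22.5%. Amounts of the subunits in the protein complex were not measured.

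The members spanned a wide range of levels, and TNFAIP3 was the lowest of them. Levels are compared between genes as TPM, reads per length of exon scaled to the same sum in every sample. RNF11 was the highest, at 125 ± 3.26 TPM with control siRNA (SD, n = 4), which was 34.5 times TNFAIP3. TNIP2 (82.5 TPM), TNIP1 (64.2), TAX1BP1 (53.0), OTULIN (44.6), ITCH (31.4), RBCK1 (27.3), CYLD (14.7) and RNF31 (9.52) followed in that order. TNFAIP3 stood at 3.63 ± 0.248 TPM in the controls and 2.23 ± 0.153 TPM after knockdown (SD, n = 4 per group). No neighbours in this order overlapped between their control samples, but the order depends on the length used. With the longest annotated transcript in place of all exons, TNIP1 (89.9 TPM) and TAX1BP1 (85.7) stood above TNIP2 (77.3), and RBCK1 (56.3) above ITCH (41.0) and OTULIN (34.7). Over unshared bases RNF31 reached 21.7 TPM and stood above CYLD. TNFAIP3 was last under all of these lengths, while RNF11 stood clear of the next gene over all exons but not with the longest transcript, where it had 90 TPM and TNIP1 89.9. Among 13316 tested genes with a length, whose median was 21.7 TPM, TNFAIP3 was above 19.7% of genes with control siRNA and RNF11 above 88.3%. Per length, TNIP1 was 17.7 times TNFAIP3 in the controls and 27.8 times after knockdown.

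**Figure D3:**
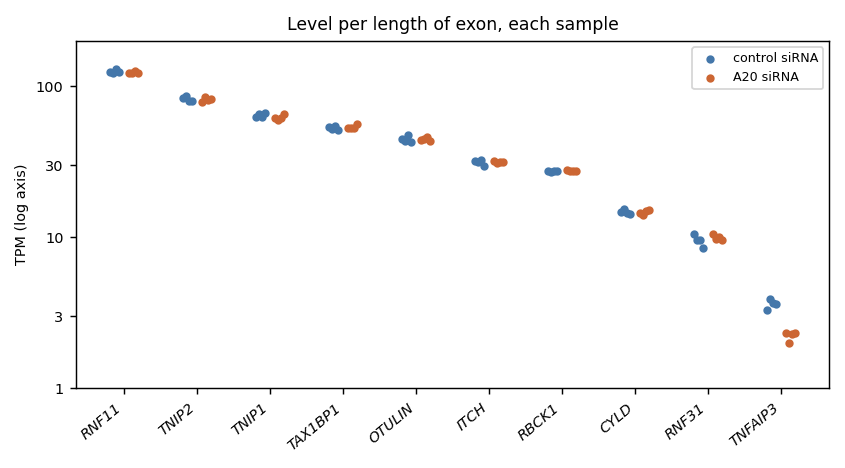
Level of each member per length of exon in TPM, on a log axis, in the order of the control means. Each point is 1 sample, blue for control siRNA and orange for A20 siRNA. RNF11 is highest (122 to 130 TPM) and TNFAIP3 lowest (2.00 to 3.90 TPM), and it is the gene whose groups are apart.

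The other genes that write, read or remove linear and lysine 63 chains were followed as a list of 40, of which 37 were tested. Of these 1 was higher, BIRC3, and 0 were lower, where 0.634% of all tested genes were higher and 0.611% lower. The median log2 fold change of the 37 was -0.0095, against 0.0027 over all tested genes. At an unadjusted p under 0.05, 5 of the 37 (13.5%) passed, where 16.2% of all tested genes did, and DESeq2 and limma-voom also called 0 of them lower. BIRC3 encodes cIAP2, a ligase that adds lysine 63 chains at the TNF receptor and whose gene is an NFkB target. Its control samples had 10.8, 11.5, 12.0 and 10.1 CPM and its A20 siRNA samples 13.7, 13.2, 14.9 and 12.96. The groups did not overlap, which held for 3.71% of tested genes in this direction. The log2 fold change was 0.30 (95% interval 0.17 to 0.43, adjusted p = 0.0333, edgeR's quasi-likelihood test). Without control siRNA replicate 2, control siRNA replicate 4 or A20 siRNA replicate 3 BIRC3 did not pass, and without both control replicate 1 and A20 siRNA replicate 2 it was 0.302 higher on the log2 scale (adjusted p = 0.0185, same test).

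The next genes of this list by p-value moved by small amounts and did not pass. UBE2V2, a cofactor of UBE2N in lysine 63 chain building, went from 131.5 to 133.7 CPM in the controls to 123.9 to 129.6 CPM after knockdown (log2 fold change -0.067, adjusted p = 0.152, edgeR's quasi-likelihood test). SQSTM1 and NBR1, autophagy receptors that bind ubiquitin, had log2 fold changes of -0.066 and -0.049 (adjusted p = 0.188 and 0.260, same test). Groups that did not overlap were found for 5 of the 37 (13.5%, against 7.61% of all tested genes), which were BIRC3 above and UBE2V2, SQSTM1, NBR1 and TRAF2 below the controls. XIAP, an inhibitor of apoptosis with ligase activity, had 0.065 (adjusted p = 0.263, same test), and passed without control replicate 1 and A20 siRNA replicate 2 (0.099, adjusted p = 0.0329, same test). UBE2N itself, RIPK1 and RIPK2, substrates on which A20 edits chains, had log2 fold changes between -0.017 and -0.0095. The genes of this list left untested were TNIP3 (ABIN-3) and RIPK3, with 0 reads in each of the 8 samples, and RIPK4, a kinase of wnt signaling. RIPK4 had 0, 1, 0 and 1 reads with control siRNA and 0, 3, 0 and 0 with A20 siRNA. A count of 0 allows up to 3 reads, which is 0.0877 to 0.141 CPM over the samples, and such floors cover counting error only.

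ITCH belongs to the NEDD4 family, so its relatives and their adaptors were listed as well. Of 10 genes 9 were tested, with HECW2 left out at 0 to 2 reads, and 0 passed in either direction, by edgeR, DESeq2 or limma-voom, or at an unadjusted p under 0.05. Of all tested genes, 1.25% passed the adjusted threshold in edgeR and 16.2% the unadjusted one. The log2 fold changes of the 9 genes ran from -0.045 for NDFIP1, which switches on ITCH, to 0.070 for HECW1, with a median of 0.021. SMURF2, a ligase of TGF-beta and wnt signaling, had 1284 ± 14.2 CPM in the controls and 1301 ± 15.6 CPM after knockdown (SD, n = 4 per group). NEDD4, NEDD4L and SMURF1 had log2 fold changes of 0.041, 0.053 and 0.040, none of which passed (adjusted p = 0.442, 0.458 and 0.513, edgeR's quasi-likelihood test).

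**Figure D4:**
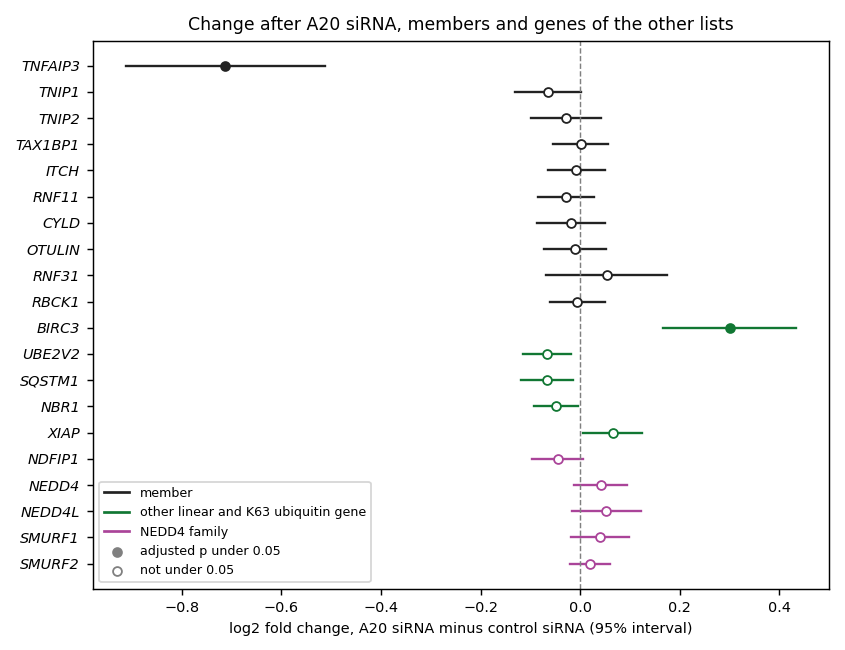
Log2 fold change (A20 siRNA minus control siRNA) with its 95% interval for the 10 members (black) and for the genes of smallest p among the other linear and K63 ubiquitin genes (green) and the NEDD4 family (purple). Filled points passed an adjusted p of 0.05: TNFAIP3 at -0.71 and BIRC3 at 0.30.

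Genes whose profile over the 8 samples came nearest to that of TNFAIP3 were looked for among 11114 tested genes with a mean of at least 50 reads, by the root mean square difference of log2(CPM over the mean control CPM). PSTK (0.247), RHOF (0.273), FMO1 (0.280), the pseudogene H3P16 (0.282) and ENSG00000268568 (0.284) were nearest, where a gene that did not move at all would differ by 0.515. None of them fell as far as TNFAIP3, with log2 fold changes from -0.42 for FMO1 to -0.37 for PSTK. They were chosen for this likeness, so their values are a description.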

How the data were processed

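The RNAseq counts of 8 RKO samples were analysed. The authors deposited raw counts of uniquely mapping reads per gene, made by trimming with Trimmomatic and mapping and counting with STAR on GRCh38.p7 and a GENCODE annotation. Tool versions, the GENCODE release and the strand setting are not given in the sources used here, so overlapping and antisense genes cannot be fully told apart. Identifiers without version were matched to GENCODE 44 (56948 of 57992 genes, 99.9% of counts). Counts were kept by edgeR's filterByExpr (minimum count 10), normalized by TMM and tested with the quasi-likelihood test of edgeR 4.0.16 in R 4.3.3, without covariates, with Benjamini-Hochberg adjustment over 13412 genes and a threshold of 0.05. Standard errors came from the F statistic and 95% intervals from its degrees of freedom. The scripts were tested on simulated data.

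The members and gene lists were chosen with earlier results of these data known. Genes named were the 10 members, genes of the other lists past the threshold or else the 5 of smallest p, the 5 genes nearest to TNFAIP3, and cell markers. In the first of the other lists the 5 genes of smallest p include the one past the threshold, and TRAF2, UBE2N, RIPK1, RIPK2, SHARPIN and untested genes were named after their values were seen, as were HECW1 and SMURF2's level. Replicate counts varied beyond sampling noise (chi-square per degree of freedom 1.31 to 3.69). Alternatives were RLE normalization, other filters, DESeq2 1.42.0, limma-voom (limma 3.58.1), a replicate block, a length and GC correction (loess, span 0.5) and each sample left out. Leaving out 2 samples, DESeq2 without independent filtering and lengths without shared bases were added after seeing the data.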

Additional observations from a re-analysis of the deposited data

Results flagged for a closer look

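In 40 groups of 4 samples, those of the named members and list genes, a single sample far from the other 3 was found 4 times, where 2 would come by chance. A20 siRNA replicate 2 was low in TNFAIP3 (3.01 CPM against 3.40 to 3.47), with a gap of 0.847 of the group's range. TAX1BP1 in A20 siRNA replicate 4 lay above the rest (118 CPM against 112 to 113), with a gap of 0.872. NDFIP1 in control siRNA replicate 1 lay below the rest (144 CPM against 149 to 150), with a gap of 0.853. NEDD4 in A20 siRNA replicate 3 lay above the rest (114 CPM against 111), with a gap of 0.848.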

How the results depend on the processing

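TNFAIP3 kept its direction under all alternatives, with log2 fold changes from -0.77 to -0.67 when 1 sample was left out (adjusted p up to 0.0149, edgeR) and 58.8% to 62.8% of the control level. DESeq2 gave -0.72 but no adjusted p, because the mean of 115.9 normalized counts was under its filtering threshold of 186.2, and without that filtering, added after seeing the data, the adjusted p was 0.0001. The 9 partners stayed above the threshold in all 18 settings (lowest adjusted p 0.0945). TAX1BP1, near 0, changed sign with RLE normalization (-0.002), no low-count filter (-0.004), DESeq2 with and without its filtering (-0.002 in both), limma-voom (0 at 3 decimals) and the length and GC correction with and without the replicate block (-0.024 in both), and ranged from -0.017 to 0.015 with 1 sample left out. ITCH (-0.029 to 0.008) and OTULIN (-0.029 to 0.017) also crossed 0 there. The other linear and K63 ubiquitin genes had 0 to 1 higher with 1 sample left out and 2 (BIRC3 and XIAP) without control replicate 1 and A20 siRNA replicate 2, and 1 lower (SQSTM1) with the replicate block and the length and GC correction. Over all genes, 82 were lower and 85 higher, against 310 and 314 when no low-count filter was used, 212 and 262 under the replicate block, 374 and 212 with the block and correction, 483 and 614 without both samples, and 188 lower with the correction alone. With 1 sample left out, 6 to 430 were lower and 6 to 567 higher, lowest without A20 siRNA replicate 3 and highest without control replicate 1. The causes were not tested. Deviations of same-numbered samples correlated by -0.01 to 0.084 and 4 of 8 samples correlated best with their own number. These values do not settle whether the numbers pair samples or mark batches, and the labels do not say so. The main test left the numbers out, and the block changed no call among the members.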
